A study of Mus musculus with 30 samples.

Results

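The 9 genes described here encode the large scaffold proteins of the Z-disc, the thin filament, the A-band and the M-band of the striated muscle sarcomere: Ttn, Neb, Actn2, Actn3, Myom1, Myom2, Myom3, Mybpc1 and Mybpc2. They were chosen by name, for what their proteins do, out of 55487 genes in the count table, and all 9 were among the 15907 genes with enough counts to test. RNA was sequenced from C2C12 cells, a wild-type mouse myoblast line that fuses into myotubes when serum is reduced, so every library came from a single cell line and not from animals. All cells were differentiated for 4 days in low glucose medium with 2% horse serum and then kept for 4 more days, to day 8, in 1 of 5 media with 6 libraries each. The control myotubes stayed in 2% horse serum (2% HS). The other groups received no serum: serum deprivation alone (SD), SD with 100 nM metformin (MET), SD with 500 nM leucine (LEU), and SD with 100 nM metformin and 500 nM leucine together (MET+LEU). SD vs. 2% HS asked what serum withdrawal did to the myotubes, and the other groups asked what each compound, and both together, did during that withdrawal. Nothing in the labels ties the 6 libraries of a group to separate cultures, so the p-values measure only the spread between these libraries, which may be technical.

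A sarcomere is the contractile unit between neighbouring Z-discs. Thin actin filaments are cross-linked at the Z-disc by alpha-actinins, while myosin thick filaments are cross-linked at the M-band, in the middle, by myomesins. Titin, the largest known protein, spans from the Z-disc to the M-band as a spring and as a template for the thick filament, nebulin runs along the thin filament, and the myosin-binding proteins C form stripes on the thick filament in the A-band. Loss of thick and thin filaments is part of muscle atrophy.

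The 250 bases before the start site of 4 of the genes are printed below, from the RefSeq promoter table on GRCm38.p6: Ttn because it held most of the counts, Myom1 as the M-band gene that fell most, and the pair Mybpc1 and Mybpc2 because these paralogs parted most after serum withdrawal. The table held promoters of 6 of the 9 genes, the others being Actn2 and Myom3. Capitals mark matches, on either strand, to 6 motifs of muscle or general transcription factors: the E-box CANNTG bound by the MyoD family (CAGCTG is a case of it and is counted under both), the TEAD site CATTCC, the MEF2 consensus, the CArG consensus of serum response factor and the TATA box TATAAA. The windows lie at chr2:76982548-76982797 (minus strand) for Ttn, chr17:71019307-71019556 (plus strand) for Myom1, chr10:88605153-88605402 (minus strand) for Mybpc1 and chr7:44524670-44524919 (minus strand) for Mybpc2. The Myom1 window lies inside the gene as annotated for exon lengths, which begins at base 71002633, so it precedes an internal start site.
Ttn: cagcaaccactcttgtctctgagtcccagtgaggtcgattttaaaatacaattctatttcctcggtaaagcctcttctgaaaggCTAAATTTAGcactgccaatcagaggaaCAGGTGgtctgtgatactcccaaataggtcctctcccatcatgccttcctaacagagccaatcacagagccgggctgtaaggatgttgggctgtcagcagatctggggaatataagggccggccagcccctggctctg
Myom1: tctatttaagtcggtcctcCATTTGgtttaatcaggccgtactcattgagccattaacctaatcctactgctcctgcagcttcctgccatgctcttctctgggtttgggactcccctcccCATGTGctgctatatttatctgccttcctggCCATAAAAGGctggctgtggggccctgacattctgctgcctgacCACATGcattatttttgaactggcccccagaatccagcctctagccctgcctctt
Mybpc1: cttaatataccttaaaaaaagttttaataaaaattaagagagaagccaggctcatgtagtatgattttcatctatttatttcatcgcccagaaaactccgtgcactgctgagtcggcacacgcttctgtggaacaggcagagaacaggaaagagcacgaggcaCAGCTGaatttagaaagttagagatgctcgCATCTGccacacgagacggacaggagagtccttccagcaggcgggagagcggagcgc
Mybpc2: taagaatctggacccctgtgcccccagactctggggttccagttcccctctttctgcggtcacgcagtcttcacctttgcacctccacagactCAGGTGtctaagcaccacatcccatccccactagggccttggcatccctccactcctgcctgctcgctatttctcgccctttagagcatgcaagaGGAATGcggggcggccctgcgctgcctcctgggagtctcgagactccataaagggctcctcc

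All 6 promoters held a CANNTG, as did 66.22% of the 32851 promoters of this length in the table. A CAGCTG was found in 1 of the 6 (Mybpc1), against 13% of all promoters. The MEF2 consensus was found in 2 of the 6, Ttn at position -166 and Myom3 at position -35 from the start site, against 1.69% of all promoters. The CArG consensus was found in 1, Myom1 at position -99, against 1.47%. CATTCC was found in 1, Mybpc2 at position -62 in its reverse complement, against 12.64%, and TATAAA in 0 of the 6, against 12.37%. These are matches of letters in 1 window each and say nothing of whether a factor was bound.

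The libraries held 12784960 to 19604103 counts. Values below are CPM, counts of a gene scaled to a common library total after TMM normalization, and a gene is called changed where its edgeR quasi-likelihood test gave an adjusted p below 0.05 over all 15907 genes. MET+LEU replicate 6 stood apart: nuclear ribosomal RNA took 5.85% and mitochondrial ribosomal RNA 7.64% of its counts, against at most 1.96% and 0.76% in the other 29 libraries. The median nuclear ribosomal share was 0.316% in 2% HS, 0.450% in SD and 1.13% in MET+LEU. The main results that include the MET+LEU group are therefore also given without it. All 8 myotube markers, among them Myog, Ckm and Acta1, were tested, and their summed CPM lay between 8480 and 10000 in all 30 libraries. Within that sum, Ckm fell from 308.5 to 156.4 CPM in SD vs. 2% HS (log2 fold change -0.98, adjusted p = 6.2e-10) and Des rose (0.13, adjusted p = 0.0065). In MET+LEU vs. SD, Mef2c (0.24, adjusted p = 3.3e-05) and Myh3 (0.36, adjusted p = 0.00479) rose, Myh3 by 0.21 without MET+LEU replicate 6. The 8 markers of undifferentiated or cycling myoblasts summed to 447 to 479 CPM in 2% HS and to 422 to 467 CPM in SD. Of these, Pax7 was lower (log2 fold change -0.37) and Id1 higher (0.33) in SD vs. 2% HS. The sum was 367 to 405 CPM in MET+LEU, where 4 of the 8 (Ccnb1, Ccna2, Top2a and Mki67) were lower than in SD. In LEU it was 386 to 434 CPM, with 3 of the 8 (Ccnb1, Ccna2 and Top2a) lower than in SD. In MET+LEU vs. LEU, 0 of the 8 were called. The 8 fibroblast or adipogenic markers summed to 40.8 to 51.5 CPM in 2% HS, 63.5 to 73.7 CPM in SD and 75.0 to 87.8 CPM in MET+LEU, and Tcf21 and Adipoq had at most 3 counts in any library. The part of these shifts in the results below was not tested. In bulk RNA, fewer cells of a type and less RNA per cell cannot be told apart.

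Serum deprivation lowered 8 of the 9 scaffold transcripts. Ttn, Neb, Actn2, Actn3, Myom1, Myom2, Myom3 and Mybpc2 fell in SD vs. 2% HS, whereas Mybpc1 did not pass the test, and 13.9% of all genes tested were called lower. The same 8 genes were lower in every SD library than in every 2% HS library, against 7.42% of all genes tested. The median log2 fold change of the 9 genes was -0.33, beside 0.00 for all genes tested. Among the 1295 tested genes with at least 10 kb of exon, the median was -0.03.

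**Figure D1:**
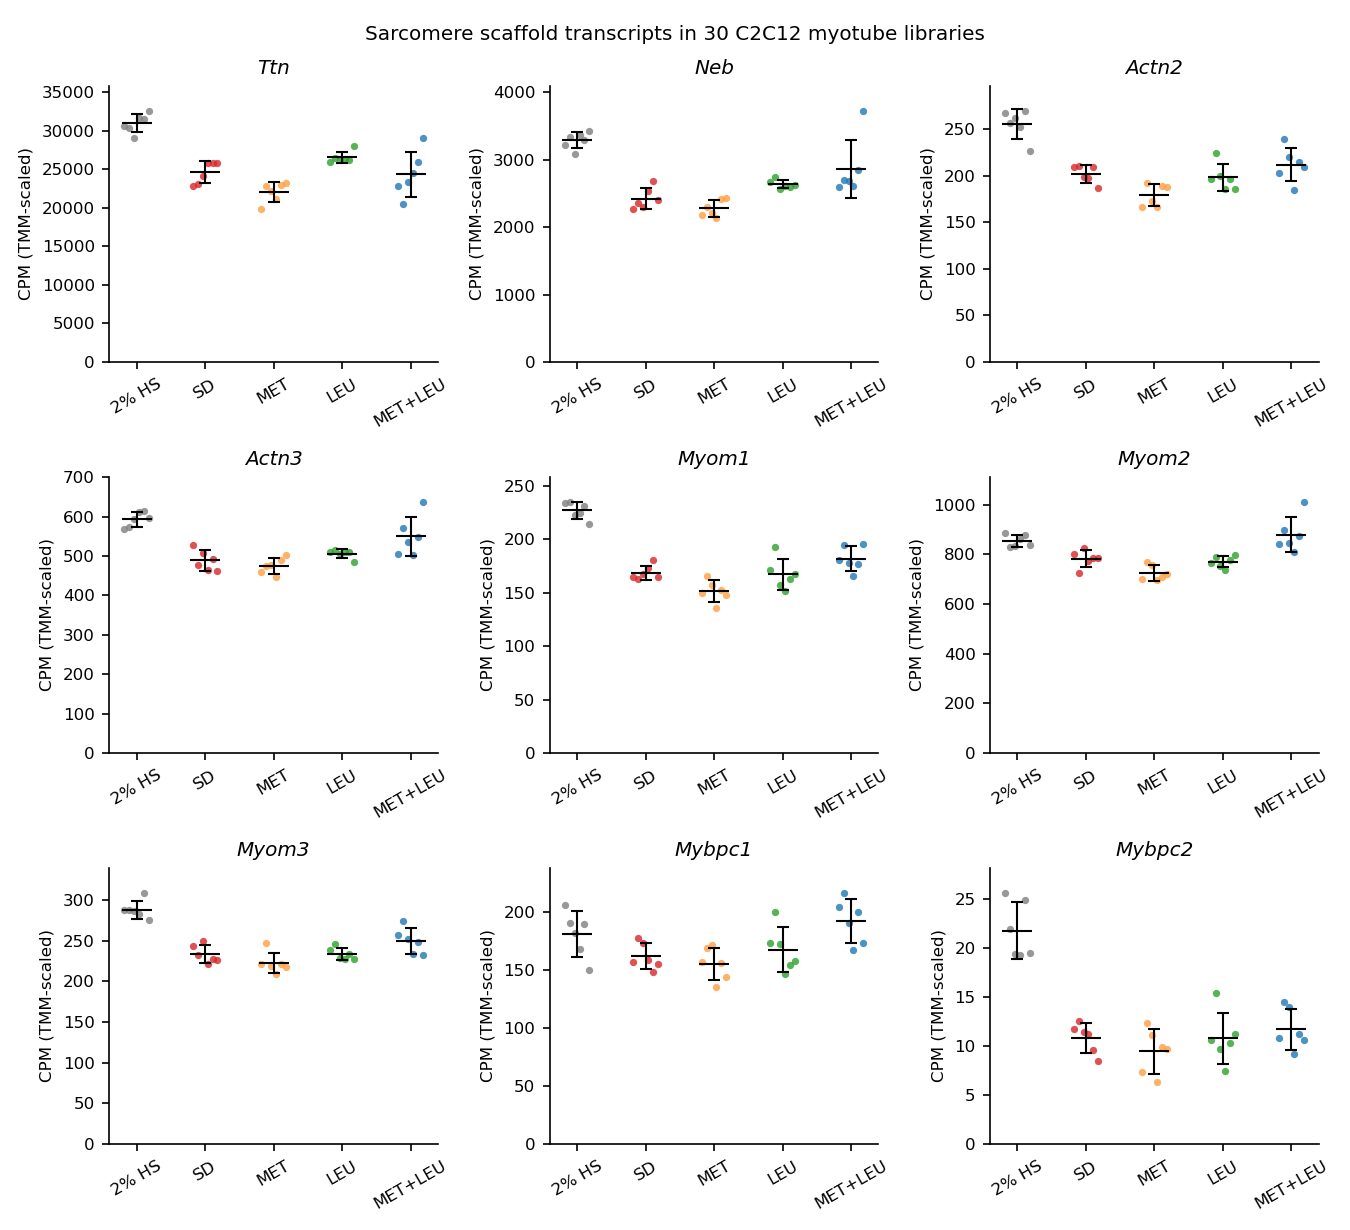
Expression of the 9 scaffold genes in the 30 libraries: each point is 1 library, in CPM after TMM scaling on an axis that starts at 0, and the bars give the mean and SD of 6 libraries. All SD, MET and LEU libraries lie below all 2% HS libraries for 8 of the 9 genes, Mybpc1 being the exception, and MET has the lowest mean for each gene.

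At the Z-disc, Actn2, which encodes the alpha-actinin found in all striated muscle, ranged from 226 to 269.3 CPM in 2% HS, with a median of 259.1. In SD it ranged from 186.6 to 210.4 CPM with a median of 203.8. The highest SD library thus lay below the lowest 2% HS library, and the log2 fold change was -0.34 (SE 0.05, adjusted p = 2.4e-06). Actn3, the alpha-actinin of fast fibers, ranged from 569.3 to 615.4 CPM around a median of 595.4 in 2% HS and from 463.1 to 527.6 CPM around 485.4 in SD. Its log2 fold change was -0.28 (SE 0.04, adjusted p = 4.2e-07), again with no overlap between the groups. The other alpha-actinin genes, Actn1 and Actn4, which are used outside the sarcomere, also fell, with log2 fold changes of -0.18 (SE 0.03, adjusted p = 2.9e-05) and -0.25 (SE 0.04, adjusted p = 3.2e-06).

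Neb, the thin filament ruler, had a median of 3320 CPM in 2% HS (3092 to 3431) and of 2381 CPM in SD (2268 to 2678). The groups did not overlap, and SD kept 73.6% of the 2% HS mean (log2 fold change -0.44, SE 0.06, adjusted p = 5.2e-07). Ttn, the titin gene, had a median of 31050 CPM in 2% HS (29100 to 32540) and of 24940 CPM in SD (22830 to 25870). It fell by 0.33 on the log2 scale (SE 0.05, adjusted p = 7.5e-06) without overlap. Ttn alone took 3.14 ± 0.115% (SD, n = 6) of all counts in 2% HS and 2.50 ± 0.156% in SD. Titin transcripts are long, but Ttn was also the highest scaffold gene per kb of exon in 2% HS, at 265.1 CPM per kb.

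The M-band genes fell by different amounts. Myom1, the myomesin that cross-links myosin in all striated muscle, had a median of 228.1 CPM in 2% HS (214.2 to 234.9) and of 166.5 CPM in SD (162.9 to 180.2), a log2 fold change of -0.43 (SE 0.05, adjusted p = 1.7e-10). Myom3 had a median of 287.0 CPM in 2% HS (276.0 to 308.7) and of 230.2 CPM in SD (222.0 to 250.2), a log2 fold change of -0.30 (SE 0.04, adjusted p = 1.5e-08). Myom2, the M-protein gene, moved least of the 8, from 849.6 CPM (829.8 to 885.6) to 785.1 CPM (722.7 to 825.0). Its 2 groups still did not overlap, and the log2 fold change was -0.13 (SE 0.04, adjusted p = 0.0108). Myom1 shares 207 exonic bases with Myl12a on the opposite strand (82991 and 114546 counts in all), and whether the counting kept the strands apart is not given in the sources used here.

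The A-band pair differed most from each other. Mybpc2, the fast-fiber myosin-binding protein C, was the least expressed member, with a median of 20.7 CPM in 2% HS (19.23 to 25.56) and of 11.32 CPM in SD (8.493 to 12.55). SD left 49.8% of its 2% HS mean (log2 fold change -1.0, SE 0.15, adjusted p = 3.4e-06), from 282 to 392 raw counts per library in 2% HS and 119 to 214 in SD. Mybpc1, the slow-fiber paralog, had a median of 185.9 CPM in 2% HS (150.1 to 206.4) and of 158.0 CPM in SD (148.7 to 177.5). Its groups overlapped, and the log2 fold change of -0.16 (SE 0.08, 95% interval -0.32 to 0.00) did not pass the test (adjusted p = 0.141). Without 2% HS replicate 6, the library with the lowest Mybpc1 level of that group, it did (adjusted p = 0.0412), as it did with a replicate block. Under the other 34 alternatives Mybpc1 was not called, and without 2% HS replicate 1 the edgeR adjusted p was 0.29.

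**Figure D2:**
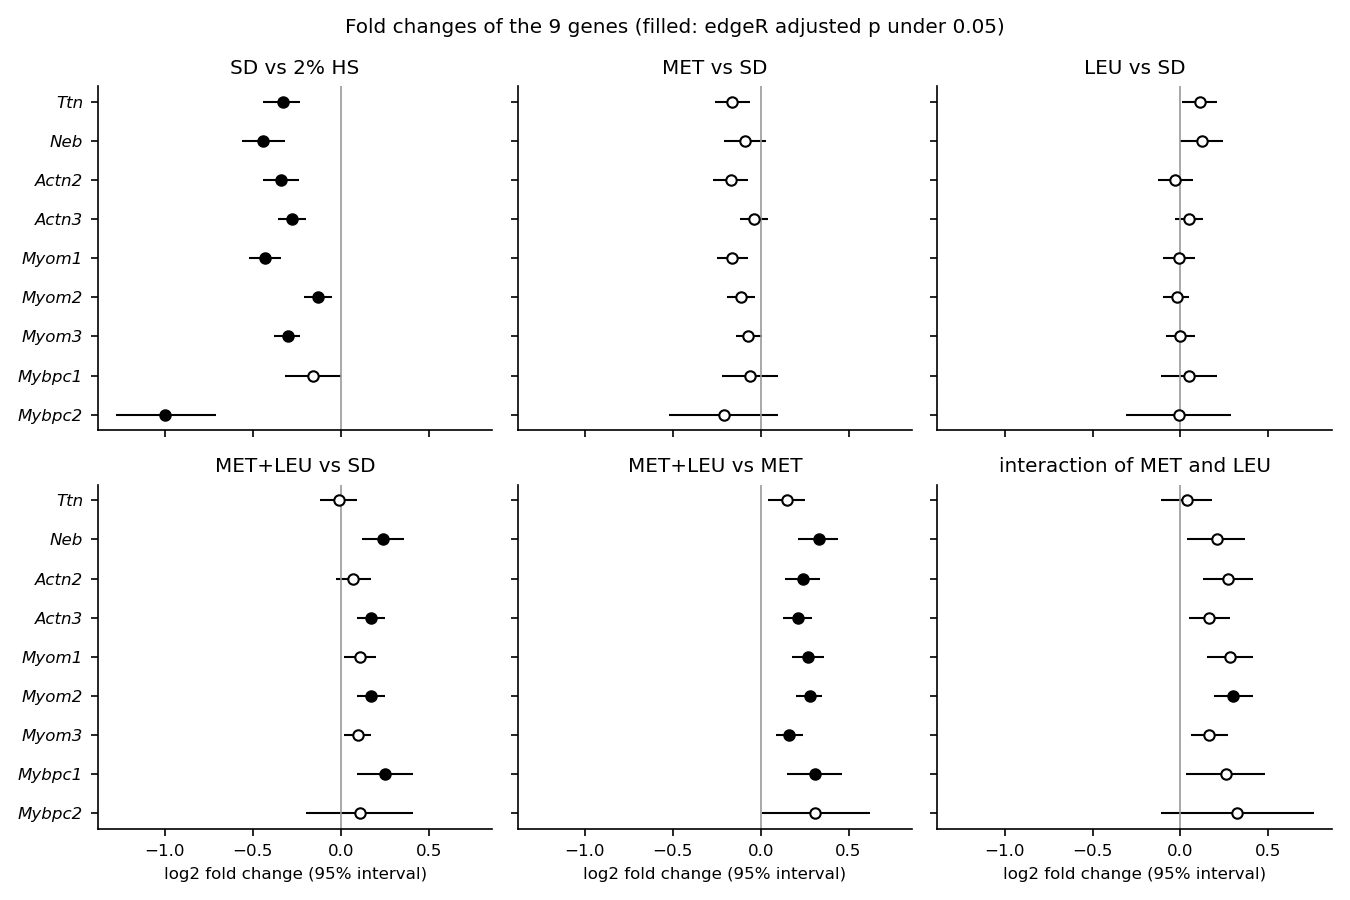
Log2 fold change of each scaffold gene in 5 comparisons and in the interaction of the compounds, with 95% intervals. Filled circles mark an edgeR adjusted p below 0.05: 8 genes are filled to the left of 0 in SD vs. 2% HS, 0 in MET vs. SD and LEU vs. SD, 4 to the right of 0 in MET+LEU vs. SD, 7 in MET+LEU vs. MET and 1, Myom2, in the interaction.

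Per length of exon, Ttn led in 2% HS with 265.1 ± 10.4 CPM per kb (SD, n = 6), followed by Actn3 with 204.5 ± 6.51, Neb with 123.8 ± 4.58 and Myom2 with 96.5 ± 2.71 CPM per kb. Next came Actn2 with 67.3 ± 4.16, Myom3 with 47.7 ± 1.81, Mybpc1 with 40.0 ± 4.35 and Myom1 with 21.7 ± 0.769 CPM per kb. Mybpc2 was last with 6.02 ± 0.796 CPM per kb. Lengths were the merged exons of all transcripts, which for Ttn came to 116825 bases on chromosome 2 (76703980 to 76982547, minus strand). With the longest transcript as the length, Myom2 (168.4 CPM per kb) stood above Neb (146.4), and the order of the others was kept. Within the alpha-actinins, the fast isoform gene Actn3 thus stood above Actn2 per kb, whereas within the myosin-binding proteins C the slow isoform gene Mybpc1 stood above the fast Mybpc2.

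**Figure D3:**
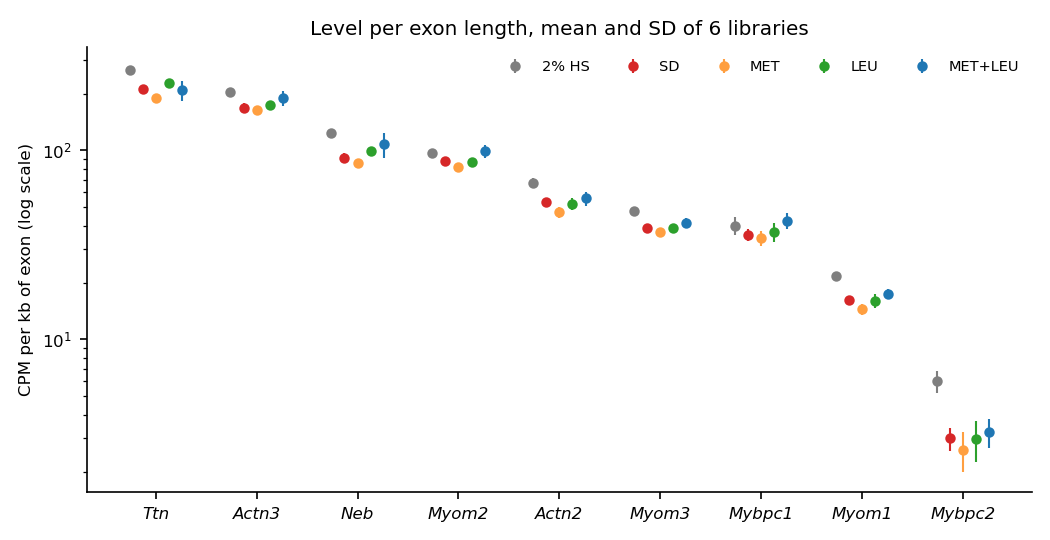
Level of each scaffold gene per kb of merged exon in the 5 groups, on a log scale, as mean and SD of 6 libraries. In 2% HS the genes run from 265.1 CPM per kb for Ttn to 6.02 for Mybpc2, and every gene has its lowest group mean in MET.

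With metformin or leucine alone, none of the 9 genes passed the edgeR test against SD. In MET vs. SD, 0 of 9 were called, as by DESeq2, beside 0.157% of all genes tested, but all 9 estimates lay below 0, with a median of -0.11. At an unadjusted p below 0.05, 4 of the 9 were lower, Ttn (log2 fold change -0.16, SE 0.05), Actn2 (-0.17, SE 0.05), Myom1 (-0.16, SE 0.05) and Myom2 (-0.11, SE 0.04), where 5.33% of all genes tested were. MET thus had the lowest mean of the 5 groups for each of the 9 genes, but the MET libraries lay below the SD libraries in 0 of 9, against 0.371% of all genes tested. In LEU vs. SD, 0 of 9 were called by edgeR and by DESeq2, beside 0.553% of all genes tested, and 4 estimates lay above 0. At an unadjusted p below 0.05 only Ttn was higher (4.68% of all genes tested were), with a log2 fold change of 0.11 (SE 0.05, adjusted p = 0.484). Without MET+LEU replicate 6, which belongs to neither group but enters the common estimate of spread, Neb was called higher in LEU vs. SD (0.12, adjusted p = 0.0465).

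Titin was the member in which the single compounds stood furthest apart. Ttn ranged from 19870 to 23170 CPM in MET (median 22490) and from 25970 to 27970 CPM in LEU (median 26350). All LEU libraries lay above all MET libraries and also above all SD libraries, as did 0.478% and 0.786% of all genes tested. In LEU vs. MET, Ttn was called higher (log2 fold change 0.27, SE 0.05, adjusted p = 0.0262) and was the only member called, where 0.0440% of all genes tested were called higher. Whether this call held with a library left out is not reported here. Neb, whose LEU libraries (2562 to 2738 CPM) also lay above all MET libraries (2134 to 2438 CPM), was not called (0.21, SE 0.06, adjusted p = 0.222). Against 2% HS, 9 of 9 genes were called lower in MET, where 17.5% of all genes tested were, and 8 of 9 in LEU, where 15.3% were. The MET call of Mybpc1 (-0.22, SE 0.08, adjusted p = 0.0348) was lost without the low-count filter, with only the groups compared in the model, and without 2% HS replicate 1, 2, 3 or 5 or MET replicate 1, 4, 5 or 6, which left 8 of 9. In each of these groups 8 genes, all but Mybpc1, lay below 2% HS in every library, against 10.5% of all genes tested in MET and 9.53% in LEU. Mybpc1 was the gene not called in LEU vs. 2% HS (-0.11, SE 0.08, adjusted p = 0.325).

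The combination raised 4 of the 9 genes over SD. Neb, Actn3, Myom2 and Mybpc1 were called higher in MET+LEU vs. SD, beside 10.6% of all genes tested, and 0 were called lower. The median log2 fold change of the 9 genes was 0.11, beside -0.01 for all genes tested. The TMM factors behind these values were 1.00 to 1.03 in SD. They were 0.803 in MET+LEU replicate 6 and 0.968 to 0.985 in the other MET+LEU libraries. As mean shares of counts, with no scaling, the 4 called genes were still higher in MET+LEU than in SD. Myom1 (0.0172% in both groups) and Myom3 (0.0237% in both) were level. The 9 genes together, mostly Ttn, took 2.95% in SD and 2.78% in MET+LEU. For none of the 9 did the MET+LEU libraries all lie above the SD libraries, against 3.41% of all genes tested. Without MET+LEU replicate 6, these 4 genes and Myom3 (0.11, adjusted p = 0.0365) were called higher.

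Neb ranged from 2589 to 3722 CPM in MET+LEU, with a median of 2690, and the highest value came from replicate 6. The next library stood at 2855 CPM. The log2 fold change in MET+LEU vs. SD was 0.24 (SE 0.06, adjusted p = 0.00482) and 0.14 (adjusted p = 0.00396) without replicate 6, a smaller difference in a group that spread less. With only the SD and MET+LEU libraries in the model the adjusted p was 0.0506.

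Actn3 had a median of 542.5 CPM in MET+LEU (503.3 to 637.2) and a log2 fold change of 0.17 (SE 0.04, adjusted p = 0.00248), or 0.12 (adjusted p = 0.0144) without replicate 6, again its highest library. Myom2 had a median of 858.5 CPM (807.1 to 1010) and a log2 fold change of 0.17 (SE 0.04, adjusted p = 0.00178), or 0.12 (adjusted p = 0.0101) without that library. Both genes overlapped SD in their lower libraries. Mybpc1 had a median of 195.7 CPM (167.1 to 216.4) and a log2 fold change of 0.25 (SE 0.08, adjusted p = 0.0307), or 0.27 (adjusted p = 0.0313) without replicate 6. Its call was lost when any of 7 libraries was left out in turn, SD replicates 1, 4, 5 and 6 and MET+LEU replicates 1, 2 and 5, with an adjusted p of up to 0.0829, and without the low-count filter (adjusted p = 0.0657).

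The remaining 5 genes did not pass the test in MET+LEU vs. SD. Ttn ranged from 20500 to 29090 CPM in MET+LEU around a median of 23900, and its log2 fold change was -0.01 (SE 0.05, 95% interval -0.12 to 0.09, adjusted p = 0.894), or -0.08 (adjusted p = 0.345) without replicate 6. Ttn was the member with the lowest log2 fold change in this comparison, and its highest library was again replicate 6. As a share of all counts, with no scaling, Ttn took 2.50 ± 0.156% (SD, n = 6) in SD and 2.30 ± 0.184% in MET+LEU, whereas the share of Neb was 0.246 ± 0.0165% in SD and 0.269 ± 0.0173% in MET+LEU. Myom1 stood at a median of 179.5 CPM (0.11, SE 0.05, adjusted p = 0.0888) and Myom3 at 250.3 CPM (0.10, SE 0.04, adjusted p = 0.0771). Without replicate 6, Myom1 gave 0.08 (adjusted p = 0.249). Actn2 stood at 212.2 CPM (0.07, SE 0.05, adjusted p = 0.390) and Mybpc2 at 10.99 CPM (0.11, SE 0.15, 95% interval -0.20 to 0.41, adjusted p = 0.692), and without replicate 6 they gave 0.07 (adjusted p = 0.495) and 0.12 (adjusted p = 0.689).

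Set against the serum control, MET+LEU still had 7 of the 9 genes called lower, beside 20.3% of all genes tested. For 4 of these, Ttn, Myom1, Myom3 and Mybpc2, all MET+LEU libraries lay below all 2% HS libraries, where 9.51% of all genes tested did so. Neb was separated as well once MET+LEU replicate 6 was set aside. Its highest other MET+LEU library stood at 2855 CPM and its lowest 2% HS library at 3092 CPM. Ttn stood at 78.7% of its 2% HS mean in MET+LEU (79.4% in SD), Myom1 at 80.2% (74.4%), Neb at 86.9% (73.6%), Actn3 at 92.8% (82.4%) and Mybpc2 at 53.7% (49.8%). Without replicate 6, the MET+LEU means were 23420 CPM for Ttn, 179.3 for Myom1, 2688 for Neb, 533.1 for Actn3 and 11.9 for Mybpc2. The 2% HS means were 30970, 227.1, 3292, 593.3 and 21.74 CPM in the same order, and the SD mean of Ttn was 24590 CPM. Myom2 and Mybpc1 were the genes not called, at 103% and 106% of the 2% HS mean, with log2 fold changes of 0.04 (SE 0.04, 95% interval -0.04 to 0.12, adjusted p = 0.437) and 0.09 (SE 0.08, 95% interval -0.07 to 0.24, adjusted p = 0.408). The call of Actn3 was weak (-0.11, SE 0.04, adjusted p = 0.0301) and was lost without 2% HS replicate 5 or without MET+LEU replicate 1, 3 or 4, with an adjusted p of up to 0.0711, and with only the groups compared in the model (adjusted p = 0.0525). Without MET+LEU replicate 6, the same 7 genes were called. Neb then stood at -0.30 (adjusted p = 8.1e-10) in place of -0.20 (SE 0.06, adjusted p = 0.00631), and Actn3 at -0.16 (adjusted p = 1.4e-04). Myom2 gave -0.01 (adjusted p = 0.804) and Mybpc1 0.11 (adjusted p = 0.335) without that library.

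The clearest separation among the serum-deprived groups was between MET+LEU and MET. In MET+LEU vs. MET, 7 of the 9 genes were called higher, beside 5.54% of all genes tested, and the same 7 were called without MET+LEU replicate 6. Myom2, with the lowest adjusted p of the 9, had a log2 fold change of 0.28 (SE 0.04, adjusted p = 1.1e-05), all MET libraries (695.0 to 770.4 CPM) lying below all MET+LEU libraries. Myom1 (0.27, SE 0.05, adjusted p = 2.0e-04) and Neb (0.33, SE 0.06, adjusted p = 9.6e-04) also showed no overlap, so that 3 of the 9 genes were separated, against 2.48% of all genes tested. Without MET+LEU replicate 6 the log2 fold changes of these genes were smaller, 0.23 for Myom2, 0.24 for Myom1 and 0.23 for Neb. Actn2, Actn3, Myom3 and Mybpc1 rose by 0.16 to 0.31 on the log2 scale with overlap, or by 0.16 to 0.33 without that library. Ttn (0.15, SE 0.05, adjusted p = 0.0812) and Mybpc2 (0.31, SE 0.16, adjusted p = 0.232) did not pass the test. In MET+LEU vs. LEU, Myom2 was the gene called (0.19, SE 0.04, adjusted p = 0.00271, and 0.14, adjusted p = 0.0132, without MET+LEU replicate 6), 1 of 9 beside 4.61% of all genes tested called higher. Ttn, at -0.12 (SE 0.05, adjusted p = 0.163), was the member below 0 in that comparison and was called lower without MET+LEU replicate 6 (-0.19, adjusted p = 0.0340).

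Whether the compounds together did more than the sum of each alone was tested as an interaction, the log2 difference of MET+LEU from SD minus those of MET and of LEU. All 9 estimates lay above 0, with a median of 0.26, beside 0.01 for all genes tested. The median of the 9 genes was -0.11 in MET vs. SD, 0.00 in LEU vs. SD and 0.11 in MET+LEU vs. SD. The interaction estimates thus include lower values with metformin alone as well as higher values with both compounds. Myom2 was called, with an interaction of 0.30 (SE 0.06, 95% interval 0.19 to 0.41, adjusted p = 0.0156), 1 of 9 beside 0.0377% of all genes tested. At an unadjusted p below 0.05, 7 of the 9 genes were above 0, where 5.68% of all genes tested were. The estimates next in size among these 7 were Myom1 (0.28, SE 0.06, adjusted p = 0.0973), Actn2 (0.27, SE 0.07, adjusted p = 0.249) and Mybpc1 (0.26, SE 0.11, adjusted p = 0.511). Ttn had an interaction of 0.04 (SE 0.07, 95% interval -0.11 to 0.18). The call of Myom2 held without MET+LEU replicate 6 (0.24, adjusted p = 0.0133). It was lost with the 4 serum-deprived groups alone in the model (adjusted p = 0.0836) and without SD replicate 3 or 4, MET replicate 1, or LEU replicate 1, 3 or 4, with an adjusted p of up to 0.0779.

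Ratios between scaffold genes, taken within a library from the counts, do not depend on how libraries are scaled. For 5 such ratios in 5 comparisons, 25 in all, 2-sided exact permutation tests over 6 against 6 libraries were run and adjusted together, and the smallest p they can give is 0.00216. The A-band ratio changed most: Mybpc2 counts were 0.119 of Mybpc1 counts in the median 2% HS library (0.106 to 0.131) and 0.0682 in SD (0.0547 to 0.0744). The groups did not overlap, and the log2 difference was -0.85 (exact permutation p = 0.00216, adjusted p = 0.00902). In MET+LEU the ratio was again below every 2% HS library (log2 difference -0.99, exact permutation adjusted p = 0.00902), or -1.0 without MET+LEU replicate 6 (exact permutation adjusted p = 0.00902). MET+LEU vs. SD gave -0.14 for this ratio (exact permutation adjusted p = 0.267).

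In the M-band, the ratio of Myom2 to Myom1 was 3.76 in 2% HS and 4.63 in SD as geometric means, a log2 difference of 0.30 without overlap (exact permutation adjusted p = 0.00902). In MET+LEU it was 4.82, 0.36 above 2% HS on the log2 scale (exact permutation adjusted p = 0.00902), or 0.34 without replicate 6, so the M-protein transcript gained on the myomesin-1 transcript after serum withdrawal, with both compounds or without them. Myom3 to Myom1 (0.12 in SD vs. 2% HS, exact permutation adjusted p = 0.0782) and Actn3 to Actn2 (0.06, exact permutation adjusted p = 0.360) did not pass. Actn3 to Actn2 was higher in MET vs. SD (0.13, exact permutation adjusted p = 0.0338), a call lost in 5 of 12 tests that left out a library.

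The ratio of Neb to Ttn was lower in SD than in 2% HS and higher in MET+LEU than in SD. It ranged from 0.104 to 0.110 in 2% HS (median 0.106), from 0.0933 to 0.104 in SD (median 0.0987) and from 0.107 to 0.131 in MET+LEU (median 0.114). SD lay below 2% HS without overlap (log2 difference -0.11, exact permutation adjusted p = 0.00902) and MET+LEU lay above SD without overlap (0.25, exact permutation adjusted p = 0.00902). Without MET+LEU replicate 6, MET+LEU vs. SD gave 0.22 (exact permutation adjusted p = 0.00902). Neither compound alone passed, with log2 differences of 0.07 for MET vs. SD (exact permutation adjusted p = 0.0947) and 0.01 for LEU vs. SD (exact permutation adjusted p = 0.800). MET+LEU was also above 2% HS (0.14, exact permutation adjusted p = 0.0155), a call lost in 5 of 12 tests that left out a library.

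**Figure D4:**
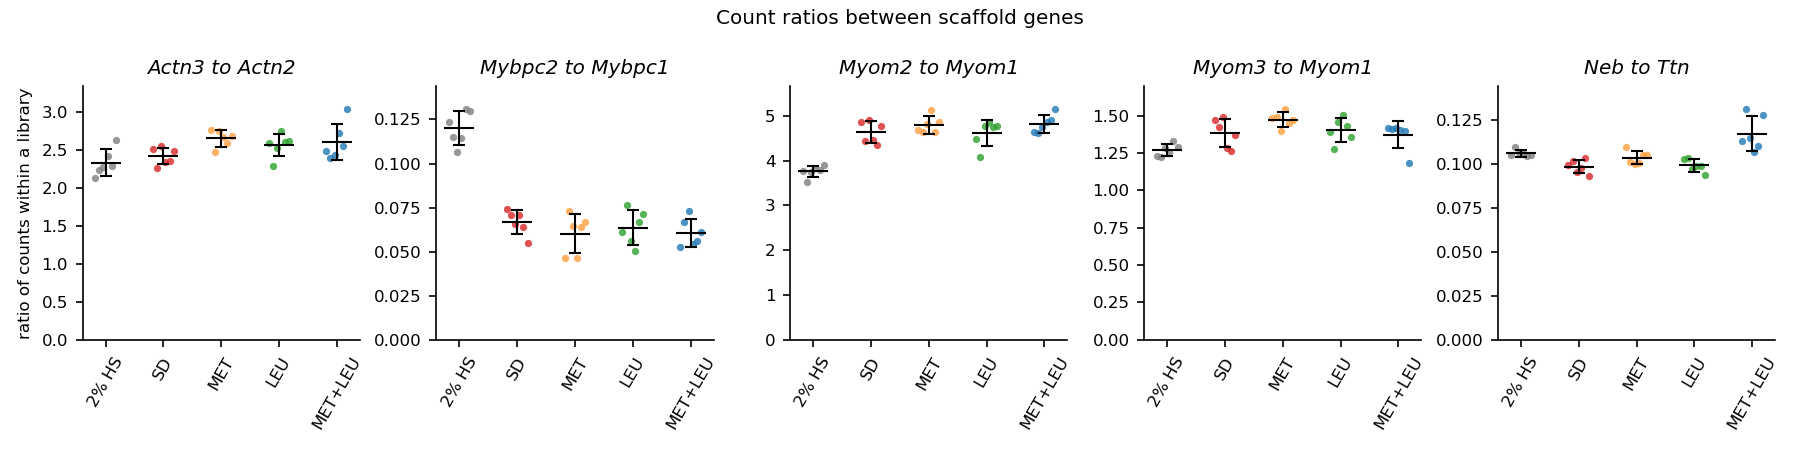
Ratios of counts between pairs of scaffold genes within each of the 30 libraries, with mean and SD per group of 6. Mybpc2 to Mybpc1 is lower and Myom2 to Myom1 higher in every SD and MET+LEU library than in every 2% HS library, and Neb to Ttn is higher in every MET+LEU library than in every SD library.

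The genes whose log2 CPM followed each scaffold gene most closely over the 30 libraries were sought among 12698 genes, as a description only, since all libraries share the same groups and scaling. For Ttn they included Macf1 (Pearson's r = 0.911) and Mical3 (0.905), and for Neb they were Ccdc141 (0.959), Fyco1 (0.946) and Filip1l (0.935). For Actn2 they were Myom1, itself a member (0.932), Pygm (0.932) and Klhl31 (0.923), and for Actn3 Fyco1 (0.935), Tpm3 (0.919) and Tbx15 (0.915). Myom1 ran closest to Cd24a (0.952), Klhl31 (0.949) and the slow myosin heavy chain gene Myh7 (0.940), Myom2 to Rilpl1 (0.872), Pde4dip (0.861) and Myo10 (0.857), and Myom3 to Myh7 (0.940), Casq1 (0.930) and Sln (0.927). Mybpc1 ran closest to the myoglobin gene Mb (0.887), Atg4a (0.848) and Mylk3 (0.828), and Mybpc2 to Tbc1d8 (0.937), Cmya5 (0.934) and Pygm (0.934). Myh7, Pygm, Fyco1 and Klhl31 were each among the closest genes of 2 members.

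Partner genes of the scaffolds were described in 3 lists. Of all genes tested, 13.9% were called lower and 13.9% higher in SD vs. 2% HS, and 7.80% lower and 10.6% higher in MET+LEU vs. SD. Of 22 tested genes listed as anchors of filaments at the Z-disc, 9 were called lower and 4 higher in SD vs. 2% HS (median log2 fold change -0.10). The list and the genes called lower included Actn1 and Actn4, which are used outside the sarcomere. Myot, encoding the Z-disc protein myotilin, fell by 0.50 on the log2 scale (SE 0.08, adjusted p = 7.6e-06), Ldb3 by 0.36 (SE 0.04, adjusted p = 6.0e-10) and Csrp3 by 0.33 (SE 0.08, adjusted p = 0.00213). The genes that rose were led by Xirp2 (0.49, SE 0.13, adjusted p = 0.00566) and Xirp1 (0.34, SE 0.04, adjusted p = 6.8e-10), which encode actin-binding Xin repeat proteins, and Pdlim3 (0.22, SE 0.04, adjusted p = 3.8e-06). In MET+LEU vs. SD, 6 of the 22 were called higher and 1 lower, and 5 and 1 without MET+LEU replicate 6. Cryab, a small heat shock protein that binds desmin and titin, and Myoz2 each had a log2 fold change of 0.26, Capzb, a subunit of the actin capping protein, had 0.20, and the filamin gene Flnc fell by 0.20. Without that library Cryab gave 0.23, Myoz2 0.17 and Capzb 0.13, and Flnc fell by 0.17, all still called.

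Of 14 tested partners of titin, the A-band and the M-band, 10 were called lower and 2 higher in SD vs. 2% HS (median -0.27). Cmya5 fell most (-0.89, SE 0.10, adjusted p = 8.0e-08), followed by Ankrd2 (-0.38) and Igfn1 (-0.37), while the stress-responsive titin-binding gene Ankrd1 rose (0.37, SE 0.06, adjusted p = 1.8e-05), as did the ubiquitin ligase gene Trim63, also called MuRF1 (0.15, SE 0.05, adjusted p = 0.0214). In MET+LEU vs. SD, 4 of the 14 were called higher and 2 lower, and 3 and 1 without MET+LEU replicate 6. Ankrd1 rose there too (0.41, SE 0.06, adjusted p = 2.2e-05, and 0.32 without replicate 6), with Ankrd2 (0.35) and Cmya5 (0.31), while Speg and Obsl1 fell by 0.19 and 0.15 on the log2 scale. The calls of Cmya5 and Obsl1 were lost without that library (adjusted p = 0.0585 and 0.0900).

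Of 12 tested factors that fold myosin or build and cap the filaments, 6 were called lower and 1 higher in SD vs. 2% HS (median -0.21). Tmod4, a cap of the thin filament's pointed end, fell most (-1.12, SE 0.15, adjusted p = 2.4e-08), from 6.01 to 2.75 CPM, with Klhl41 (-0.30) and the myosin methyltransferase gene Smyd1 (-0.29), and Myo18b rose (0.17, SE 0.04, adjusted p = 0.00252). In MET+LEU vs. SD, 6 of the 12 were called higher and 0 lower, with and without MET+LEU replicate 6 (median 0.15 with it). Nexn, encoding the actin-binding protein nexilin, rose most (0.76, SE 0.16, adjusted p = 0.00164), and by 0.45 (adjusted p = 7.68e-07) without replicate 6. The leiomodin genes Lmod3 and Lmod2, whose products start and lengthen thin filaments, rose by 0.43 and 0.27, or 0.33 and 0.20 without it. In both comparisons and all 3 lists, the medians lay on the same side of 0 as that of the 9 scaffold genes.

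**Figure D5:**
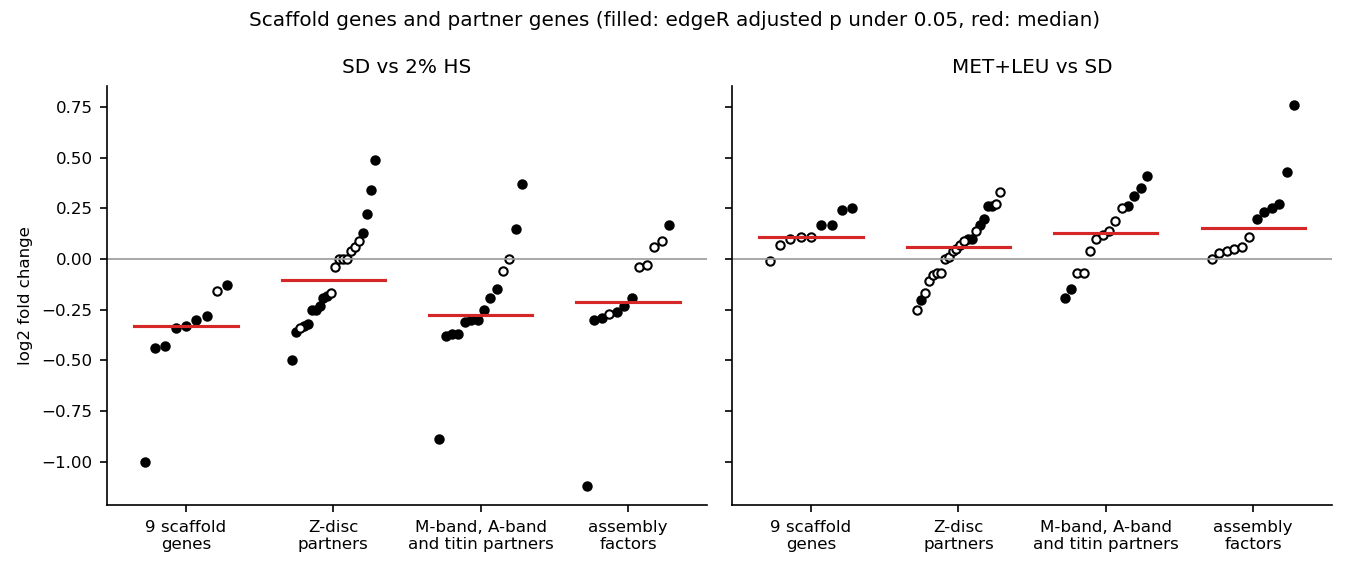
Log2 fold changes of the 9 scaffold genes and of the 3 partner lists (22, 14 and 12 tested genes) in SD vs. 2% HS and MET+LEU vs. SD. Each circle is a gene, filled where the edgeR adjusted p was below 0.05, and the red line is the median, which is -0.33 for the scaffold genes and -0.10, -0.27 and -0.21 for the lists in SD vs. 2% HS, and 0.11 beside 0.06, 0.13 and 0.15 in MET+LEU vs. SD.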

How the data were processed

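Total RNA was depleted of ribosomal RNA, made into stranded libraries and sequenced as 150 × 150 bp reads on a NovaSeq. The authors deposited raw read counts per Ensembl gene for the 30 libraries. Their processing notes name cutadapt 1.16, STAR 2.7.6a, featureCounts 1.6.3 and DESeq2 1.30.1 on GRCm38. The annotation release and the strand and multi-mapping settings of the counting are not given in the sources used here. Gene symbols and exon lengths came from GENCODE M21 (55227 of 55487 identifiers matched, the rest holding 0.00434% of counts).

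Genes passing edgeR's filterByExpr (15907) were fitted with edgeR 4.0.16 (TMM factors, robust quasi-likelihood model, a mean per group, all 30 libraries, R 4.3.3), and p-values were adjusted by Benjamini-Hochberg over all genes tested. Standard errors are the log2 fold change divided by the square root of F, and 95% intervals are 1.96 standard errors to each side. CPM per kb is CPM divided by merged exon length. The within-library ratios were log2-transformed and compared by exact permutation. The fitting script was tested on simulated counts. Total counts were 12784960 to 19604103 per library, and no pair of replicates agreed within sampling noise. Alternatives were DESeq2 1.42.0, other size factors, no low-count filter, only the groups compared, a replicate block, leaving out each library, and the longest transcript as length.

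All 9 genes were named in each comparison. Up to 3 called partner genes per list and direction, those changed most, were named in MET+LEU vs. SD and likewise in SD vs. 2% HS. For each scaffold gene the 3 most similar genes were named (mean log2 CPM 1 or more). One gene named by this rule is not reported here. The alpha-actinin genes Actn1 and Actn4 were named beyond this rule, after their values were seen. The members, lists and ratios were chosen with earlier results of these data known. The comparisons with SD share the SD libraries, and those with 2% HS share the control libraries. The replicate numbers did not pair libraries across groups (mean correlation of deviations 0.0157 for the same number and -0.00314 for different numbers).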

Additional observations from a re-analysis of the deposited data

Results flagged for a closer look

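Among 70 sets of 6 libraries (9 genes and 5 ratios in 5 groups), 8 held a library far from the other 5 of its group. By chance about 1 in 20 sets would. MET+LEU replicate 6 held the highest Neb level of its group, 3722 CPM against 2855 CPM in the next library, and the lowest log2 ratio of Myom3 to Myom1, 0.25 against 0.49. LEU replicate 6 held the highest Ttn level, 27970 CPM against 26410 CPM, and the lowest Actn3 level, 485.4 CPM against 505.0 CPM. LEU replicate 2 held the highest Actn2 level, 224.8 CPM against 199.3 CPM. For Myom3, 2% HS replicate 5 (308.7 CPM against 288.0 CPM) and MET replicate 2 (247.1 CPM against 221.8 CPM) were the highest of their groups. The log2 ratio of Neb to Ttn was highest in 2% HS replicate 2, at -3.18 against -3.23. The effect of metformin on Myom2 was called different with and without leucine, with an interaction of 0.30 on the log2 scale (edgeR, adjusted p = 0.0156). That call was lost under 7 of the alternatives, with an edgeR adjusted p of up to 0.0836.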

How the results depend on the processing

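The members' log2 fold changes under the alternatives were tallied in all comparisons but MET vs. 2% HS, LEU vs. 2% HS and LEU vs. MET. Of these, 2502 kept their direction and side of the threshold, 21 lost and 26 gained a call, and 42 changed sign. Without the low-count filter, 2 of the 9 genes were called in MET vs. SD (Ttn and Actn2), 2 in MET+LEU vs. LEU (Ttn and Myom2) and 3 in the interaction (Actn2, Myom1 and Myom2). Mybpc1 then lost its call in MET+LEU vs. SD (adjusted p = 0.0657, 3 genes called) and in MET vs. 2% HS (8 genes called). DESeq2 called 2 in the interaction, and the 4 serum-deprived groups alone gave 0, with Myom2 at an adjusted p of 0.0836. A replicate block was also put in the model, although the numbers did not pair libraries (27 of 120 comparisons were closest to their own number). With it, 1 gene was called in MET vs. SD (Actn2), 3 in MET+LEU vs. LEU and 3 in the interaction. The block also gave 9 in SD vs. 2% HS, 9 in LEU vs. 2% HS, 5 in MET+LEU vs. SD and 8 in MET+LEU vs. MET. With each library left out in turn, called genes ranged from 0 to 1 in LEU vs. SD, 1 to 2 in MET+LEU vs. LEU and 0 to 2 in the interaction. They ranged from 3 to 5 in MET+LEU vs. SD, 6 to 7 in MET+LEU vs. 2% HS and 7 to 8 in MET+LEU vs. MET. In SD vs. 2% HS and in MET vs. 2% HS the range was 8 to 9.

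Changes of sign fell on values near 0 that were not called. Myom3 in LEU vs. SD was 0.00 under 5 alternatives and -0.01 to 0.02 with libraries left out, where Myom1 ran from -0.05 to 0.01, Mybpc1 from 0.00 to 0.09 and Mybpc2 from -0.14 to 0.08. Left-out libraries also moved Ttn from -0.08 to 0.03 in MET+LEU vs. SD and from -0.03 to 0.07 in the interaction, Myom2 from -0.01 to 0.05 in MET+LEU vs. 2% HS, and the log2 ratios in LEU vs. SD from -0.02 to 0.03 (Myom2 to Myom1), -0.01 to 0.04 (Myom3 to Myom1) and 0.00 to 0.03 (Neb to Ttn). Myom3 to Myom1 ran from -0.04 to 0.03 in MET+LEU vs. SD. Where no value shows it, the cause was not tested. Counts were lowest for Mybpc2, with as few as 105 in a library.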
